A study of Oryza sativa with 6 samples.

Results

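The data describe 67 genes of membrane transporters in the base of young rice (Oryza sativa) shoots of wild type and of a line labelled a knockout of the gene PINE1. The members were taken from the authors' deposited table of 1962 genes that differ between the genotypes, by the words transporter, permease, antiporter, symporter or efflux in either of its gene descriptions. This gave 69 genes, of which 2 named for auxin transport were left out. All 67 have values among the 27397 genes of the deposited table of normalized reads, and 53 carry a symbol. The words stood in both descriptions for 29 members, in the one before the symbol only for 15 and in the one after it only for 23.

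The groups were wild-type Nipponbare and pine1-1a, a knockout of PINE1 in Nipponbare, with 3 samples each. For each sample, the lowest 1 cm or so of the shoot was taken from 8 untreated plants, grown in days of 16 h and aged 20 days from germination. Stem and shoot apical meristem are both in that piece. The knockout is a single line, the sources used here do not give its kind of allele, and the samples are not tied to separate sowings, so errors measure only the spread between these pools.

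Transporters move ions, sugars, amino acids, peptides and other solutes across membranes, either driven by ATP, as in ABC proteins, or by gradients of protons or other ions. In a grass, roots take up minerals and load them into the xylem, and the nodes at the stem base pass them between vessels that lead to leaves, to younger tissues and to the apex. The stem base also receives sugar and amino acids through the phloem. Sequences of the genes are not printed here, because the reference at hand matched 0 of the 67 locus identifiers.

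Because every member was listed by the authors for its difference between these same libraries, the contrast of pine1 with wild type chose the members. Their differences are given as a description, with standard errors (SE) and no p-value. Values are normalized reads, which are gene counts divided by 1 size factor per library. They are not corrected for gene length, so they are compared between libraries and not between genes. A log2 fold change is pine1 over wild type on the log2(normalized reads + 1) scale, from a limma fit over 24149 genes. In genes with few reads it depends on the added 1. It also compares averages of the log2 values of single libraries, so it can differ from the log2 ratio of the means in either direction. Of the 17 fitted members with a mean under 100 normalized reads, it was larger in size than that ratio in 9 and smaller in the others.

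Libraries held 27918842 to 36250239 recovered reads, and the first principal component, with 59.9% of the variance, separated the genotypes. PINE1 (Os12g0617000) itself had 2943 to 3674 normalized reads in wild type and 4173 to 5199 in pine1, so its level does not check the labels and all directions refer to the libraries labelled pine1. Of the markers of the shoot apex, OSH1, OSH15 and OSH71 were read in every library, with summed reads of 1765 to 2328 in wild type and 3202 to 3998 in pine1. OSH1 (log2 1.30, limma adjusted p = 0.0032) and OSH15 (log2 1.08, limma adjusted p = 0.0014) were called higher in pine1. OSH71 had means of 987 and 974 (log2 -0.02) and was not called. Summed reads of 3 leaf RBCS genes were 1129 to 1376 in wild type and 1247 to 1318 in pine1. Singly, RBCS3 (log2 0.41) and RBCS2 (log2 0.27) were higher in pine1 and RBCS5 (log2 -0.25) was lower. Of these 3 RBCS genes only RBCS3 was called (limma adjusted p = 0.0486). Of 5 root markers, RCc3, OsCASP1, Lsi1 and OsIRT1 summed to 406 to 654 normalized reads in wild type and 172 to 374 in pine1. The fifth, NRAMP5, is itself a member and is described below. OsIRT1 had at most 6.06 normalized reads in any library, and OsCASP1 had 7.73 to 20.2, while RCc3 had 355 to 589 in wild type and 88.9 to 297 in pine1. RCc3 carries the lower sum and was itself not called (limma adjusted p = 0.134). Lsi1 went the other way, with 38.2 to 46.2 in wild type and 62.0 to 79.8 in pine1. The part that these markers have in the transporter values was not tested. In such bulk samples, fewer cells of a type and less RNA per cell cannot be told apart.

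Of the 67 members, 44 were higher and 23 lower in pine1, which is 65.7% higher. Among the other genes of the authors' table that could be fitted the share was 59.4%, and among all genes tested it was 50.3%. The authors' table holds 7.16% of the genes with normalized reads. The median log2 fold change of the 66 members fitted was 0.48, against 0.31 for the other genes of that table and 0.00 for all genes tested. OsZIP9 (Os05g0472400) had too few reads to be fitted. In each of the 67 the genotypes had no overlap, against 26.4% of all genes tested. By limma 36 members were called higher (background 4.02%) and 14 lower (background 2.44%), and 16 of the 66 were not called. Called members came to 23 higher and 6 lower without wild type replicate 1, to 22 and 7 when replicate 3 of that genotype was left out, and to 18 and 8 without pine1 replicate 3. Leaving out replicate 2 gave 5 called lower for wild type and 7 for pine1. These shares come from the contrast that chose the genes, and nothing is read from them.

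**Figure D1:**
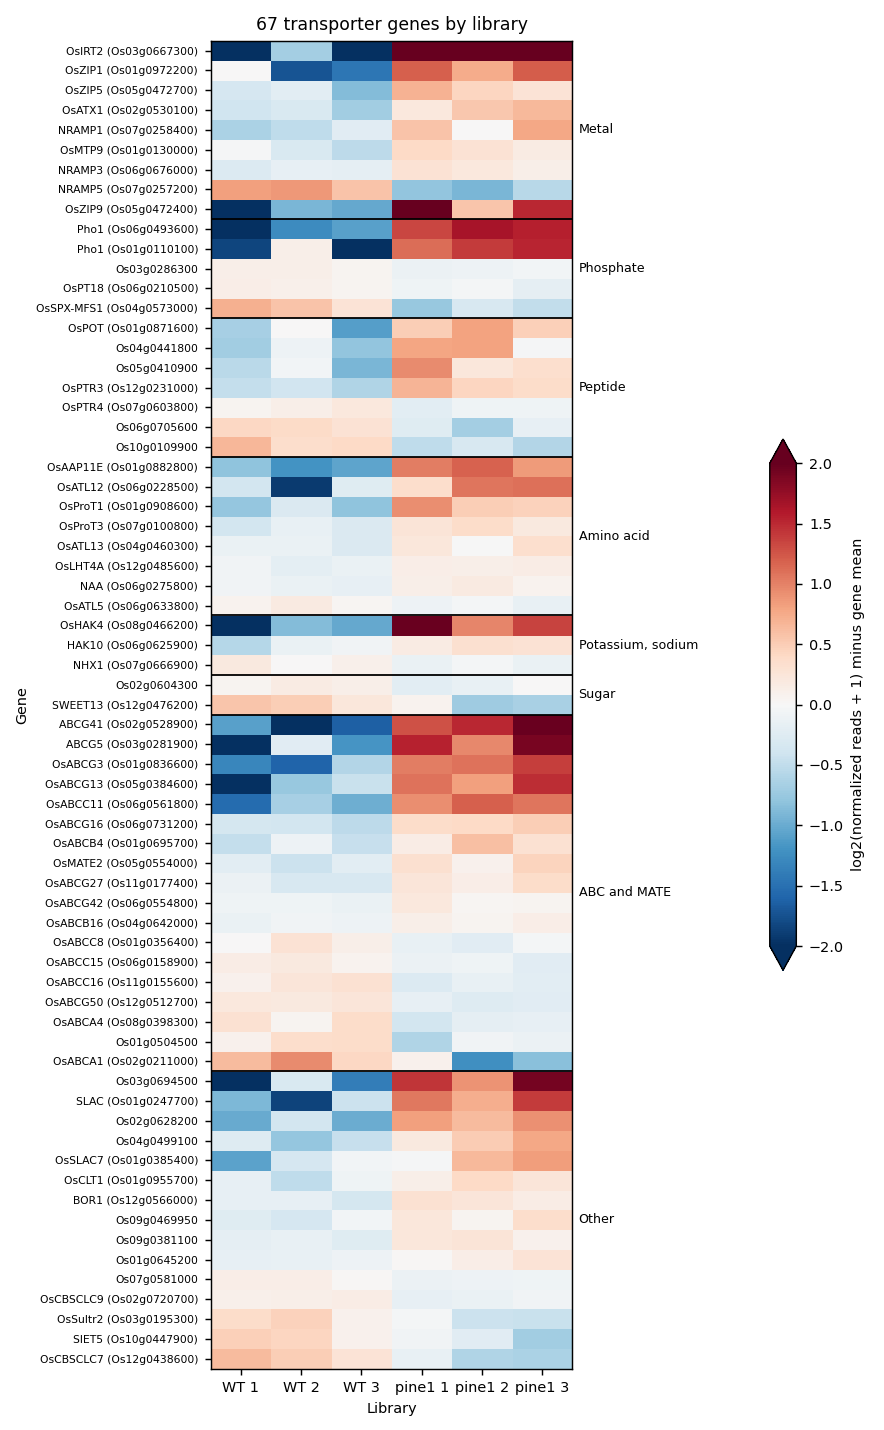
Values of the 67 transporter genes in each library, as log2(normalized reads + 1) minus the mean of the gene over the 6 libraries, with genes grouped by substrate and colours saturated at 2 in either direction. In 44 rows the pine1 columns on the right are redder than the wild type columns on the left, and in 23 rows they are bluer.

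Large differences were mostly in genes with few reads. Of the 22 members that differed at least 2-fold, 15 had a mean under 100 normalized reads, 6 a mean of 100 to 1000 and 1 a mean of 1000 or more. A gene of few reads can enter such a table only with a large difference, so this relation is partly set by the choice. Of the 18 members with a mean under 100 normalized reads 17 were higher in pine1, and the median log2 fold change of those fitted was 2.12. The share higher among other genes of the authors' table with so few reads was not counted, so nothing is read from this. Of 27 members with means of 100 to 1000 reads 17 were higher and 10 lower, with a median of 0.54. Of the 22 with 1000 or more, 10 were higher and 12 lower, and 20 of these differed by less than 1.5-fold. Replicates were spread by a median SD of 0.54 on the log2 scale in the first class, 0.20 in the second and 0.07 in the third.

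**Figure D2:**
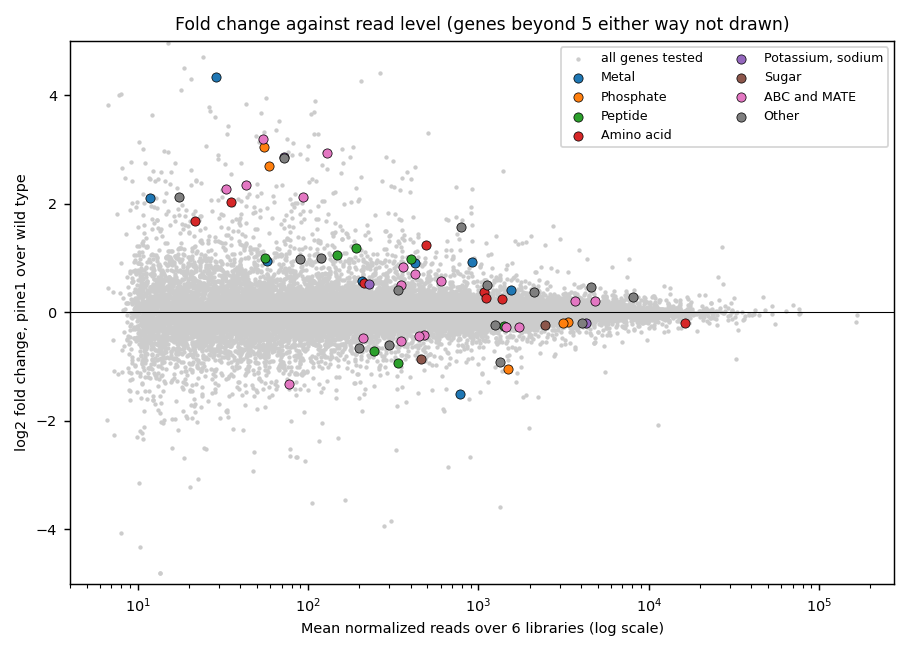
Log2 fold change of pine1 over wild type against the mean normalized reads over the 6 libraries (log axis) for all genes tested (grey) and for the 66 fitted transporter genes (coloured by substrate). The transporter genes with large positive values lie at the left, under 1000 reads. Of those with 1000 reads or more, OsSPX-MFS1 (-1.04) and OsCBSCLC7 (-0.93) lie lowest and the other 20 differ by less than 1.5-fold.

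At least 2-fold differences were found in 22 of the 66 members, 19 higher and 3 lower. The 3 lower ones were NRAMP5, OsSPX-MFS1 and OsABCA1. These 22 are 33.3% of the members fitted, against 30.6% of the other genes of the authors' table and 3.63% of all genes tested. The share is thus near that of the other genes chosen by this contrast, and nothing is read from it. Of the 19 higher ones, 12 had a mean under 20 normalized reads in wild type. No wild type replicate was the lowest of its genotype throughout these 19 genes: replicate 1 was lowest in 8, replicate 2 in 6 and replicate 3 in 5. Wild type replicate 2 was the highest of its genotype in 11 of the 19, and pine1 replicate 2 the lowest of its own in 9. Among the pine1 libraries replicate 3 was the highest in 10 of the 19, replicate 2 in 5 and replicate 1 in 4.

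**Figure D3:**
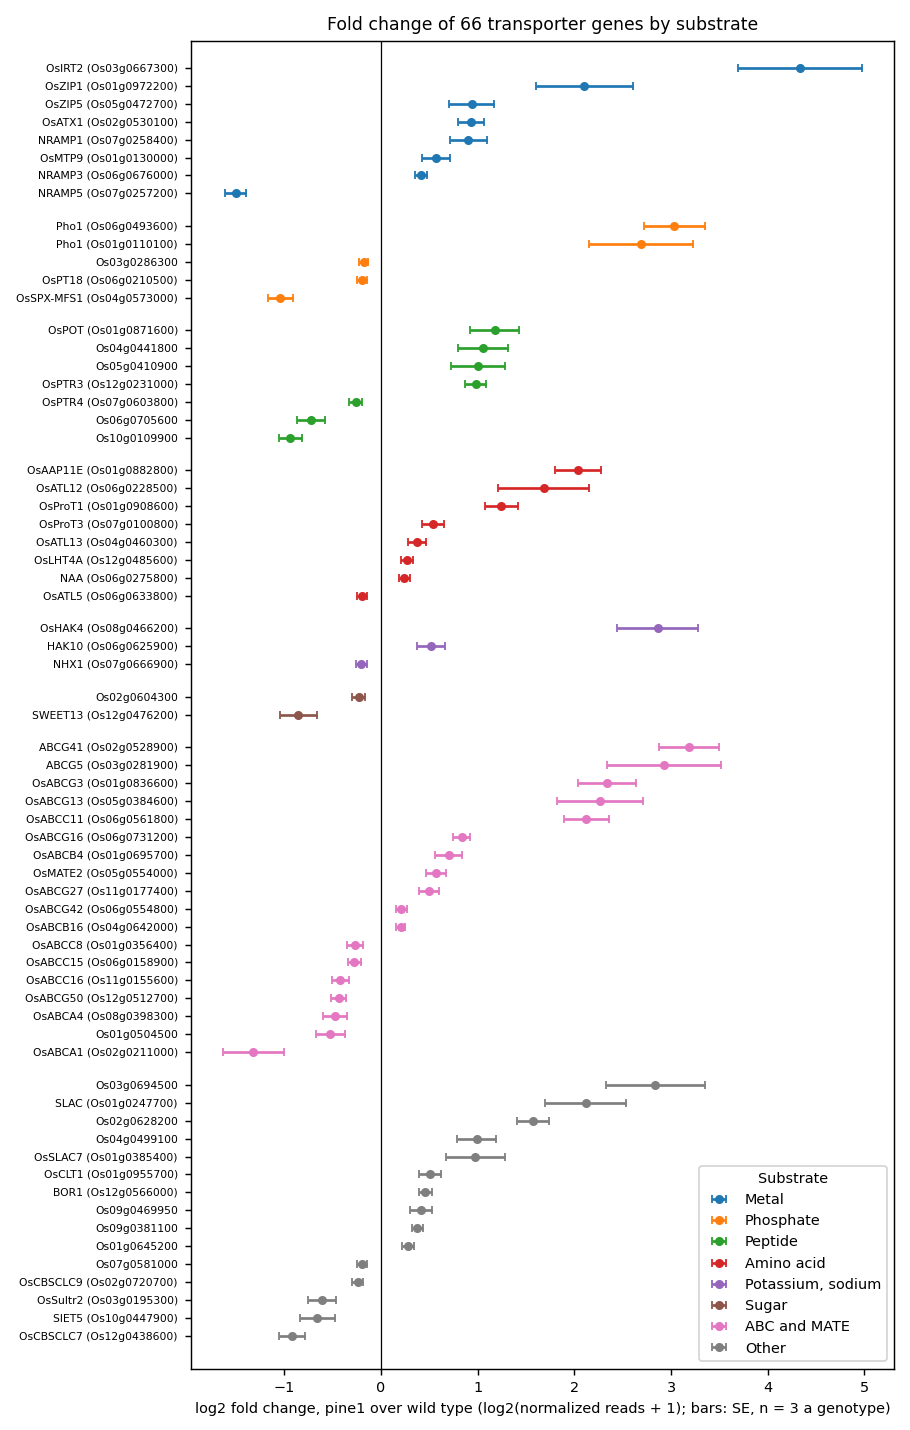
Log2 fold change of pine1 over wild type for the 66 fitted transporter genes, grouped by the substrate that their names give, with bars of 1 SE (n = 3 samples a genotype). Values run from -1.50 for NRAMP5 to 4.33 for OsIRT2, and most lie between -1 and 1.

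Metals were the substrate of 9 members, of which 8 were higher and 1 was lower in pine1. The 1 lower gene, NRAMP5 (Os07g0257200), encodes the root carrier through which rice takes up manganese and cadmium. It had 1189, 1238 and 1007 normalized reads in wild type, given here and below in the order of replicates 1, 2 and 3, and 389, 359 and 462 in pine1. The highest pine1 library held 45.9% of the reads of the lowest wild type library, and the log2 fold change was -1.50 (SE 0.11), a 2.84-fold lower level. NRAMP1 (Os07g0258400), a related metal carrier on chromosome 7, went the other way. It is 3 loci from NRAMP5, counting only loci with normalized reads. NRAMP1 had 254, 278 and 339 normalized reads in wild type and 586, 398 and 677 in pine1, with a log2 fold change of 0.90 (SE 0.19). NRAMP3 (Os06g0676000), which distributes manganese in the nodes of rice, was higher by 0.42 (SE 0.06), from a mean of 1338 ± 48.6 to 1786 ± 108 (SD, n = 3 each). The 3 members of this family therefore include a lower gene and a pair of higher ones.

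The ZIP family, which carries zinc and iron into cells, has 4 members, all higher in pine1, and 3 of them had few reads in wild type. Other ZIP genes, which are no members, were not called and went both ways, with log2 fold changes of -0.24 (SE 0.20) for OsZIP3, 0.09 (SE 0.30) for OsZIP4, -0.31 (SE 0.15) for OsZIP7 and 0.29 (SE 0.37) for OsZIP8. OsIRT2 (Os03g0667300), an iron carrier, had 0, 6.73 and 1.71 normalized reads in wild type and 64.7, 49.5 and 50.8 in pine1. The lowest pine1 library held 7.36 times the normalized reads of the highest wild type library. Its log2 fold change of 4.33 (SE 0.65) rests on 9 reads in wild type, and it was 3.60 without wild type replicate 1 and 5.08 without replicate 2 of that genotype, and 3.02 when the added constant was 5. OsZIP9 (Os05g0472400), a zinc carrier, had 0, 1.92 and 1.71 normalized reads in wild type and 26.1, 7.07 and 14.7 in pine1. With 4 reads against 47, the ratio of reads was 12.6, with an exact 95% counting interval of 4.61 to 48.2 that covers counting error only. The next locus with normalized reads on chromosome 5 is OsZIP5 (Os05g0472700). It had 42.6, 46.1 and 29.1 in wild type and 87.9, 72.8 and 65.4 in pine1 (log2 0.94, SE 0.23). OsZIP1 (Os01g0972200) had 8.74, 1.92 and 2.56 normalized reads in wild type and 21.3, 15.2 and 21.4 in pine1 (a 4.30-fold difference, SE 0.50 on the log2 scale). With an added constant of 5 its log2 fold change was 1.43. The sources used here do not give how reads that match several related genes were counted. OsIRT1, whose sequence is close to that of OsIRT2, had 0 to 6.06 normalized reads in every library.

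OsMTP9 (Os01g0130000), which exports manganese toward the xylem in rice roots, was higher by 0.57 (SE 0.15), from 168 ± 29.1 to 247 ± 20.0. OsATX1 (Os02g0530100) entered through a description that calls it similar to a dicarboxylate transporter, while its symbol and other description point to a metal-binding protein; ATX1 proteins pass copper to other proteins. It had 651, 702 and 533 normalized reads in wild type and 996, 1251 and 1357 in pine1, with no overlap (log2 0.93, SE 0.13). The metal group as a whole had a median log2 fold change of 0.92 over the 8 members fitted, against 0.31 over the other genes of the authors' table; both were chosen by this contrast. NRAMP5 counts among the root markers, of which RCc3 was also lower in pine1, Lsi1 was higher and OsCASP1 overlapped between the genotypes; the part of root tissue in these values was not tested.

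**Figure D4:**
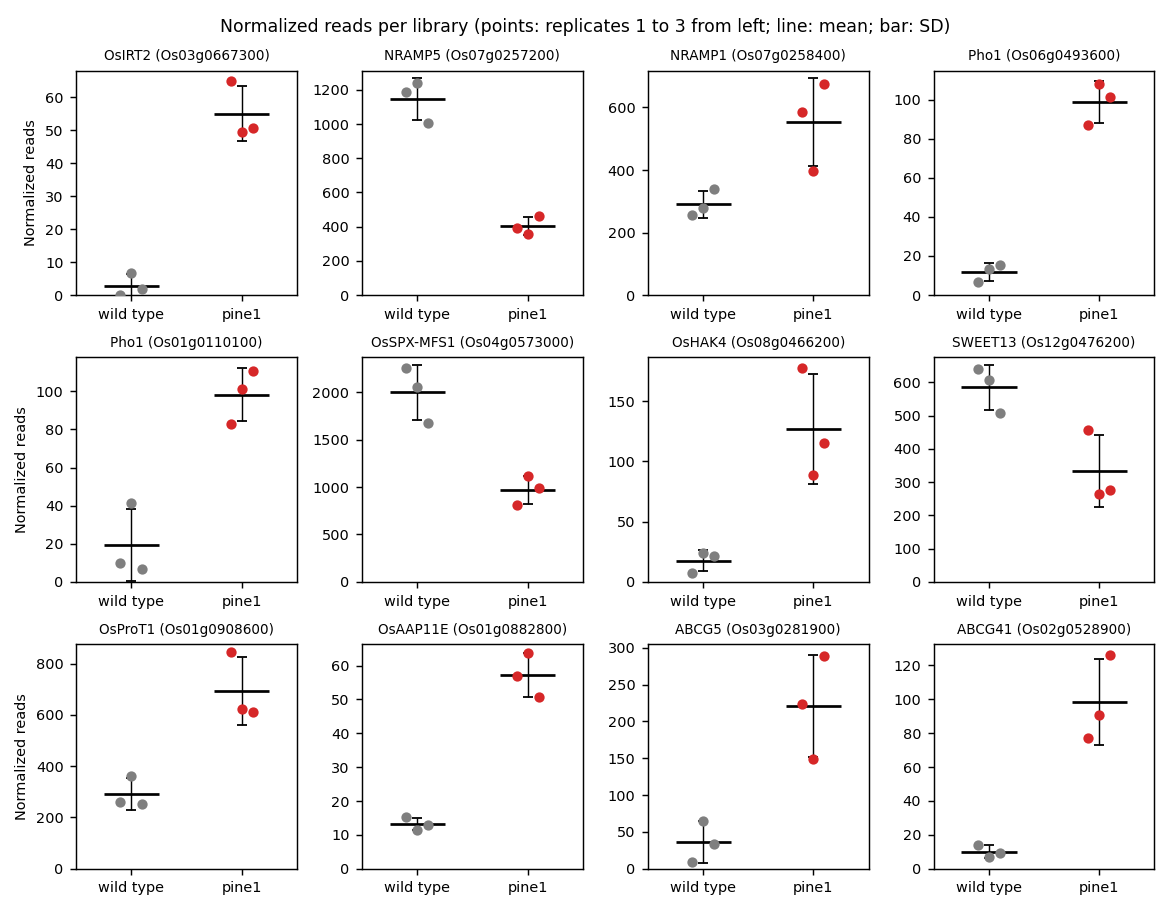
Normalized reads of 12 transporter genes in each library (points are replicates 1 to 3 from left to right, lines are means and bars are SD, n = 3). NRAMP5, OsSPX-MFS1 and SWEET13 are lower in pine1, the other 9 genes are higher, and in no panel do the genotypes overlap.

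The 5 phosphate members split into 2 higher genes with few reads and 3 lower genes with many. The 2 higher genes both carry the symbol Pho1, a family that in Arabidopsis exports phosphate into the root xylem. Os06g0493600 had 6.55, 13.5 and 15.4 normalized reads in wild type and 87.0, 108 and 102 in pine1 (log2 3.03, SE 0.31). Os01g0110100 had 9.83, 41.3 and 6.84 in wild type and 83.1, 101 and 111 in pine1 (log2 2.69, SE 0.54). Wild type replicate 2 stands above the other 2 wild type libraries in this gene, and without it the log2 fold change was 3.42. In both genes every pine1 library exceeded every wild type library. OsSPX-MFS1 (Os04g0573000), a phosphate carrier of the vacuole membrane, had 2256, 2058 and 1677 normalized reads in wild type and 815, 1112 and 985 in pine1. That is a 2.06-fold lower level in pine1 (log2 -1.04, SE 0.13). The mitochondrial phosphate carrier OsPT18 (Os06g0210500) was lower by a small amount, from 3369 ± 90.7 to 2931 ± 134 (log2 -0.20, SE 0.05). Os03g0286300, similar to translocators that exchange phosphate for phosphoenolpyruvate, went from 3587 ± 90.6 to 3165 ± 74.6 (log2 -0.18, SE 0.05).

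Peptide transporters made up 7 members, 4 higher and 3 lower. Proteins of this family carry di- and tripeptides, nitrate or plant hormones, and the substrate of a given member cannot be told from these names; 0 of the 67 members had nitrate in a description. OsPOT (Os01g0871600) had 108, 174 and 79.5 normalized reads in wild type and 243, 301 and 240 in pine1 (log2 1.18, SE 0.25). OsPTR3 (Os12g0231000) had 269, 287 and 248 in wild type and 604, 506 and 483 in pine1 (log2 0.98, SE 0.11). Os04g0441800 (log2 1.06, SE 0.26) and Os05g0410900 (log2 1.00, SE 0.28) were also about 2-fold higher, from means of 95.2 and 36.8. These 4 genes were close in size of difference, between 0.98 and 1.18. Wild type replicate 2 was the highest wild type library in each of the 4. Going the other way, Os10g0109900 had 502, 405 and 418 normalized reads in wild type and 222, 254 and 212 in pine1 (log2 -0.94, SE 0.12). Os06g0705600, which has an oligopeptide transporter domain by one description and is called a retrotransposon protein by the other, went from 302 ± 12.5 to 184 ± 33.2 (log2 -0.72, SE 0.14). OsPTR4 (Os07g0603800) went from 1549 ± 87.1 to 1293 ± 66.1 (log2 -0.26, SE 0.07).

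Of the 8 amino acid transporters, 7 were higher and 1 was lower in pine1. OsProT1 (Os01g0908600), of the family of proline transporters, had 260, 363 and 254 normalized reads in wild type and 844, 624 and 611 in pine1. Its lowest pine1 library stood well above its highest wild type library, and the log2 fold change was 1.25 (SE 0.17). OsProT3 (Os07g0100800), of the same family, went from 173 ± 13.1 to 252 ± 15.7 (log2 0.54, SE 0.11). OsAAP11E (Os01g0882800), described as an amino acid carrier, had 15.3, 11.5 and 12.8 normalized reads in wild type and 57.0, 63.7 and 50.8 in pine1 (log2 2.03, SE 0.24). This gene had few reads, but its replicates lay close together in both genotypes. OsATL12 (Os06g0228500) had 13.1, 3.84 and 14.5 in wild type and 22.2, 37.4 and 38.3 in pine1 (log2 1.68, SE 0.47). The other higher members differed by less: OsATL13 (Os04g0460300) by 0.37, OsLHT4A (Os12g0485600) by 0.27 and NAA (Os06g0275800) by 0.24 on the log2 scale. OsATL5 (Os06g0633800), with 16844 to 18528 normalized reads in wild type and 14848 to 15882 in pine1, was the 1 lower member (log2 -0.19, SE 0.05).

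Potassium and sodium were the substrate of 3 members. OsHAK4 (Os08g0466200), a potassium carrier of the KUP family, had 7.65, 24.0 and 21.4 normalized reads in wild type and 178, 88.9 and 115 in pine1 (log2 2.86, SE 0.42). HAK10 (Os06g0625900), of the same family, had 150, 202 and 211 in wild type and 248, 278 and 273 in pine1 (log2 0.52, SE 0.15). Both were higher in pine1 in all libraries, the first about 7.28-fold and the second 1.43-fold. NHX1 (Os07g0666900), which moves sodium into the vacuole in exchange for protons, was lower by a small amount, from 4581 ± 296 to 3972 ± 135 (log2 -0.20, SE 0.06).

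Both sugar members were lower in pine1. SWEET13 (Os12g0476200), a sucrose exporter that some strains of the blight bacterium Xanthomonas switch on, had 640, 607 and 509 normalized reads in wild type and 457, 264 and 276 in pine1. Pine1 replicate 1 lay nearest to wild type, and without it the log2 fold change of -0.86 (SE 0.20) was -1.11. Os02g0604300, a nucleotide-sugar transporter, a class that supplies the Golgi with building blocks for wall polysaccharides, went from 2652 ± 98.6 to 2262 ± 186 (log2 -0.23, SE 0.07). No member had hexose or monosaccharide in a description (0 of 67).

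ABC and multidrug transporters were the most numerous group, with 18 members, 11 higher and 7 lower, and a median log2 fold change of 0.35. Of these, 16 are ABC proteins, which use ATP to move lipids, hormones and other compounds, and 2 are MATE proteins, which export organic acids and other small molecules. Among the 8 of subfamily G, which in plants export wax, cutin and suberin precursors, 7 were higher and 1 was lower, with a median of 1.55. Among the 8 of subfamilies A, B and C, 3 were higher and 5 lower, with a median of -0.27. This split by subfamily was made after the values were seen.

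ABCG5 (Os03g0281900), which the authors' deposited table describes as acting in the suberization of the root hypodermis, had 8.74, 65.4 and 33.3 normalized reads in wild type and 224, 150 and 289 in pine1. Wild type replicates of this gene differed by up to 7.48-fold among themselves, and the log2 fold change of 2.93 (SE 0.59) was 2.17 without wild type replicate 1 and 3.55 when replicate 2 was left out instead. ABCG41 (Os02g0528900), of the pleiotropic drug resistance class, had 14.2, 6.73 and 9.40 in wild type and 77.3, 90.9 and 126 in pine1 (log2 3.18, SE 0.31). OsABCG3 (Os01g0836600), described there as a pollen gene, had 12.0, 9.61 and 20.5 in wild type and 64.7, 67.7 and 83.5 in pine1 (log2 2.33, SE 0.30). OsABCG13 (Os05g0384600) had 4.37, 13.5 and 17.1 in wild type and 51.2, 42.4 and 67.7 in pine1 (log2 2.26, SE 0.45). These 4 genes had few reads in wild type and were highest in pine1 replicate 3. With more reads, OsABCG16 (Os06g0731200) went from 258 ± 15.8 to 461 ± 20.4 (log2 0.83, SE 0.09) and OsABCG27 (Os11g0177400) from 290 ± 24.8 to 410 ± 31.6 (log2 0.50, SE 0.10). OsABCG42 (Os06g0554800) was higher by 0.21, and OsABCG50 (Os12g0512700) was lower by 0.44 on the log2 scale, from 516 ± 10.1 to 381 ± 12.1.

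In the other subfamilies, OsABCC11 (Os06g0561800) had 24.0, 45.2 and 35.9 normalized reads in wild type and 137, 166 and 152 in pine1 (log2 2.12, SE 0.24). OsABCA1 (Os02g0211000) had 105, 131 and 89.8 in wild type and 71.5, 28.3 and 37.2 in pine1 (log2 -1.32, SE 0.32), with pine1 replicate 1 nearest to wild type. OsABCB4 (Os01g0695700) was higher by 0.70 (SE 0.14) and OsABCB16 (Os04g0642000), with 4399 to 4582 normalized reads in wild type and 4991 to 5296 in pine1, by 0.20 (SE 0.04). The remaining 4, OsABCC8, OsABCC15, OsABCC16 and OsABCA4, were lower by 0.27 to 0.48 in size on the log2 scale. The MATE genes went opposite ways: OsMATE2 (Os05g0554000) from 484 ± 43.2 to 721 ± 89.2 (log2 0.57, SE 0.11) and Os01g0504500 from 411 ± 44.2 to 288 ± 54.4 (log2 -0.53, SE 0.15).

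The other 15 members, with 10 higher and 5 lower, carry anions, nucleobases, boron or unnamed substrates. Os03g0694500, a nucleobase-ascorbate transporter, had 6.55, 35.6 and 16.2 normalized reads in wild type and 121, 82.9 and 169 in pine1 (log2 2.84, SE 0.51). Its order of libraries within each genotype was the same as that of ABCG5, lowest in replicate 1 and highest in replicate 2 in wild type, and lowest in replicate 2 and highest in replicate 3 in pine1. This likeness was noticed among the values and not tested. A second gene of its kind, Os09g0381100, went from 1836 ± 60.8 to 2386 ± 149 (log2 0.38, SE 0.06). Os02g0628200, a transporter-related gene of the DUF250 family, had 337, 526 and 339 in wild type and 1189, 1051 and 1271 in pine1 (log2 1.57, SE 0.16). It was about 2.97-fold higher, while Os07g0581000, of the same family by its description, was lower by 0.20 on the log2 scale.

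Of the anion carriers, a pair with a SLAC symbol, relatives of the guard cell anion channel of Arabidopsis, were higher. SLAC (Os01g0247700) had 6.55, 2.88 and 9.40 normalized reads in wild type and 28.0, 22.2 and 36.1 in pine1 (log2 2.12, SE 0.42). OsSLAC7 (Os01g0385400) had 38.2, 64.4 and 78.6 in wild type and 80.2, 128 and 147 in pine1 (log2 0.97, SE 0.30), so that the lowest pine1 library lay just above the highest wild type library. Genes of chloride channels were lower. OsCBSCLC7 (Os12g0438600) had 1955, 1768 and 1520 in wild type and 1133, 828 and 815 in pine1 (log2 -0.93, SE 0.13), and OsCBSCLC9 (Os02g0720700) was lower by 0.24 in size. The sulfate transporter OsSultr2 (Os03g0195300) went from 361 ± 47.7 to 237 ± 39.2 (log2 -0.61, SE 0.14), and SIET5 (Os10g0447900), of the citrate transporter family, from 243 ± 34.8 to 155 ± 33.1 (log2 -0.66, SE 0.18). BOR1 (Os12g0566000), which exports boron toward the xylem, had 3996, 4016 and 3516 normalized reads in wild type and 5571, 5297 and 4977 in pine1 (log2 0.46, SE 0.07). Os01g0645200, of the bile acid sodium symporter family, had 7173 to 7455 in wild type and 8128 to 9697 in pine1 (log2 0.28, SE 0.06). Os04g0499100, of the BT1 family, was higher by 0.99 (SE 0.20), OsCLT1 (Os01g0955700), a transporter that the authors' deposited table ties to glutathione balance, by 0.50 (SE 0.11), and Os09g0469950, similar to a plastid dicarboxylate transporter, by 0.41 (SE 0.11).

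The largest adjusted p in the authors' deposited table is 0.0496, so that the table ends at about 0.05. The members nearest to this end are OsABCA4 (Os08g0398300), at 0.0468 with a log2 fold change of 0.49 for wild type over pine1 in the authors' deposited table, and Os09g0469950, at 0.0467 with -0.41 in the authors' deposited table. OsABCA4 had 256, 216 and 267 normalized reads in wild type and 160, 183 and 185 in pine1. Just outside, among transporter loci listed below that are not in that table, were OsNRT2.3 (DESeq2 adjusted p = 0.0785, log2 1.69) and OsSWEET1a (DESeq2 adjusted p = 0.0916, log2 -0.17), from DESeq2 run on the recovered reads.

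By locus identifier, chromosome 1 held 14 members, 12 higher and 2 lower, and chromosome 6 held 12, 8 higher and 4 lower. All 5 members of chromosome 5 and both members of chromosome 9 were higher, and both members of chromosome 10 were lower. As 65.7% of all members were higher, nothing is read from such small groups. Members stood within 10 loci of each other in 3 places, counting only loci with normalized reads. These were the pair of zinc carriers OsZIP9 and OsZIP5, which were both higher, NRAMP5 and NRAMP1, which went opposite ways, and ABCG41 and OsATX1, 5 loci apart and both higher.

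Which other known transporters of the same substrates changed was asked with a list of 94 loci written by substrate from general knowledge, of which 13 are members. Of the 94, 78 have normalized reads and 65 passed the filter on low values. By limma 10 of the 65 rose and 3 fell (20.0%, background 6.46%), and the median log2 fold change was 0.04. Of these 13 calls 10 are members, chosen by this same contrast, so nothing is read from that share. Of 24 metal loci 7 rose and 1 fell, but among those that are no members 2 of 17 were called. Of 15 sugar loci 0 rose and 1 fell, and among those that are no members 0 of 14 were called. Of 7 nitrate and peptide loci 1 rose, and it is no member. Of 6 phosphate loci 1 rose and 1 fell, and of 2 silicon and boron loci 1 rose. Those phosphate, silicon and boron calls are all members. Among the loci that are no members, 0 of 4 for phosphate and 0 of 1 for silicon and boron were called. Of 7 potassium and sodium loci, 3 amino acid loci and 1 ammonium locus, 0 were called. When replicate 1 or 3 of wild type or replicate 2 or 3 of pine1 was left out, 6 of the listed loci rose in each case. Without pine1 replicate 1, 5 fell. These counts include members.

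**Figure D5:**
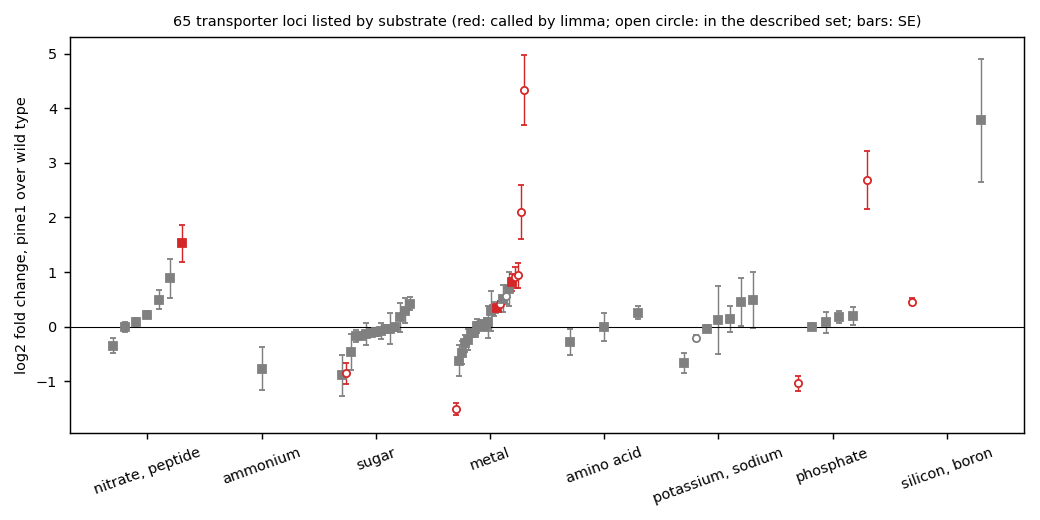
Log2 fold change of pine1 over wild type for the 65 fitted loci of the substrate list, with bars of 1 SE (n = 3 samples a genotype). Red marks loci called by limma, open circles mark loci that are also members and squares the other 53, of which 3 were called.

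Of the 53 listed loci that are no members, 3 rose and 0 fell, which is 5.66% against the background of 6.46%. Taking out the members removed loci that this contrast had chosen, while the background keeps such genes. The lower share is partly set by that, and nothing is read from it. OsHMA4 (Os02g0196600), a copper pump of the root vacuole, had 2706, 2921 and 2678 normalized reads in wild type and 3598, 3626 and 3300 in pine1. It rose by 0.34 on the log2 scale (SE 0.06, 95% interval 0.21 to 0.47, limma adjusted p = 0.0090, between 5.1e-05 and 0.0439 over the alternatives), in 3 of 3 libraries. OsVIT2 (Os09g0396900), which moves iron and zinc into the vacuole, had 154, 183 and 204 in wild type and 310, 377 and 270 in pine1. It rose by 0.82 (SE 0.15, limma adjusted p = 0.0148, range 1.1e-04 to 0.0576), a call lost without wild type replicate 1. Both are in the authors' deposited table too, under descriptions without the words of the rule. OsNRT2.3 (Os01g0704100), a nitrate carrier of the root stele, had only 5.13 to 7.65 normalized reads in wild type and 15.8 to 26.3 in pine1. Its rise of 1.52 (SE 0.34, limma adjusted p = 0.0320, range 0.0259 to 0.110) was lost with DESeq2 and without any library except pine1 replicate 3.

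Well-known carriers of sugar and phosphate were among the 50 that were not called, and those given here were chosen after their values were seen. The sucrose symporters OsSUT1 (Os03g0170900; 984, 955 and 1003 normalized reads in wild type, 967, 891 and 870 in pine1), OsSUT2 and OsSUT4 had log2 fold changes of -0.11 (95% interval -0.26 to 0.04), -0.04 and -0.10. The phosphate exporter OsPHO1;2 (Os02g0809800), related to the Pho1 genes above, had 1456, 1387 and 1177 in wild type and 1288, 1717 and 1553 in pine1, and its values overlapped. OsSPX-MFS3 (Os06g0129400), of the same vacuolar family as OsSPX-MFS1, had a log2 fold change of 0.00 (SE 0.07), and OsSPX-MFS2 of 0.20 (SE 0.17). OsSWEET11 (Os08g0535200), a sucrose exporter like SWEET13, had 1492, 1360 and 1482 in wild type and 1706, 1788 and 2374 in pine1, with a log2 fold change of 0.42 (limma adjusted p = 0.0636, between 0.0028 and 0.186 over 15 alternatives). It passed the threshold in 3 of these, with DESeq2, with the replicate block and without pine1 replicate 1, and it is in the authors' deposited table under a description without the words of the rule. The silicon exporter Lsi2 (Os03g0107300) had 0, 23.1 and 0 in wild type and 18.4, 72.8 and 42.9 in pine1, which overlap. Whether these genes differ in their response from the members was not tested.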

How the data were processed

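RNA was measured in 6 samples of the shoot base, grouped by the genotype and replicate number in their titles. Libraries were made from oligo(dT)-selected RNA with random priming, per the labels' protocols. The sources used here do not say if strand was kept, so reads of overlapping genes may be mixed. The submitters' processing notes name the build IRGSP-1.0 and the tools FastQC, STAR, HTSeq and DESeq2, without versions. The deposited normalized reads are a signal, counts over a size factor set by the authors for each library. In each library 100% of the values lie within 0.001 reads of a whole number of equal steps, from which the reads were recovered. No gene among the deposited normalized reads had a sum under 10 recovered reads, so such genes are not analysed here. The second deposited table gives, per the file headers, the authors' log2 fold change, its SE and p-values; its signs are wild type over pine1 in 1961 of 1961 genes found in both tables.

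The main fit was limma 3.58.1 (R 4.3.3) on log2(normalized reads + 1) by genotype, with an intensity trend, for 24149 genes kept by the filter of edgeR 4.0.16 (filterByExpr) at a minimum count of 10. The Benjamini-Hochberg adjustment ran over all of these, with calls made below an adjusted p of 0.05. Alternatives were added constants of 0.5 and 5, no filter, a filter at a mean of 5 CPM (recovered reads scaled to equal totals), TMM and upper-quartile scaling, edgeR's quasi-likelihood test and DESeq2 1.42.0 on the recovered reads, a replicate block, and each library left out. The limma fit in its main form was tested on simulated counts with planted changes. These were drawn independently for each library, at the spread typical of a gene's read level. Genes whose replicates spread more widely than that were not covered. The alternatives were not tested in this way. Tables and figures were made with matplotlib 3.10.9, scipy 1.17.1, pandas 2.3.3 and numpy 2.4.6 in Python 3.11.15.

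The members and the lists of loci and markers were chosen with earlier results of these data known, and the listed loci were written from memory. Genes were named by substrate, with up to 4 higher and up to 4 lower per group by size of difference among those with a mean of at least 20 normalized reads in the higher genotype, then the member with the highest mean of each group, the 2 members nearest the authors' threshold and each called listed locus. The other members are given more briefly, so that all 67 are accounted for.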

Additional observations from a re-analysis of the deposited data

How the results depend on the processing

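The direction of a member is fixed by how the members were chosen, since their genotypes do not overlap, and is no sign of stability. Upper-quartile scaling put the median of all genes at -0.01 on the log2 scale, the farthest from 0 of the scalings tried. With the 5 CPM filter, which leaves out genes with few reads, 573 genes were called higher instead of 970, 24 members were higher instead of 43 of those fitted, 19 members instead of 36 were called higher, and 5 listed loci instead of 10 rose. With DESeq2 on the recovered reads, 44 members were called higher instead of 36 and 23 lower instead of 14. This is the method of the table that chose the members, so these counts were fixed by the choice. With 1 library left out, fewer samples entered the fit: genes called higher ranged from 563 to 757 and lower from 261 to 544, members called higher from 18 to 25 and lower from 5 to 10, and listed loci that rose from 6 to 7 and that fell from 2 to 5. Of single genes, an added constant of 5 gave 3.02 for OsIRT2, 1.43 for OsZIP1 and 1.77 for OsAAP11E; the first 2 of these moved by over 1.5-fold.

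Same-numbered samples of the genotypes deviated together with correlations of 0.055, 0.022 and 0.134, so the replicate numbers were not taken to pair the samples. With a replicate block, 1195 genes were called higher and 799 lower, 41 members were called higher and 18 lower, and 13 listed loci rose and 3 fell.

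Members with under 100 normalized reads had the widest spread between replicates, and their fold changes depend on the added constant. No genome sequence was used here, so reads shared between related genes were not examined.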
